A study of Mus musculus with 31 samples.

Results

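Baiap2l2, Mamdc2, Trpm1, Myo1e and Gm8615 were 5 of the 55401 genes in the count tables of 31 mouse libraries, and they were selected on measured values, as genes that were low in CD11b+ cells of female mice without amyloid transgenes and much higher in CD11b+ cells of APP/PS1 mice. Comparisons that use the levels of the selection are therefore given below as a description, with no p-value for these genes. CD11b+ cells were collected acutely from whole brain with magnetic beads that bind CD11b, an integrin subunit of microglia and other myeloid cells, and temporo-occipital cortex was sequenced as tissue. All mice were 13 months old. The female CD11b+ groups were A-/wt/wt (7 libraries), A+/wt/wt (4) and A+/ki/ki (4), the male CD11b+ groups were A-/wt/wt (3) and A-/ki/ki (4), and the female cortex groups were A-/wt/wt (1), A+/wt/wt (4) and A+/ki/ki (4).

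A+ mice carry the APPswe and PS1dE9 transgenes, with familial Alzheimer's mutations and under the mouse prion protein promoter, and develop amyloid plaques, while A- mice carry neither. The second part of each name is the Plcg2 genotype, where ki/ki is homozygous for the P522R change knocked into the gene of phospholipase C gamma 2, a signalling enzyme of microglia downstream of TREM2, on a C57BL/6J background. Female A- and A+ CD11b+ libraries carry different batch tags in their column names (b3 and b2) and the male libraries a further tag (b1), so that in CD11b+ cells the effect of the transgenes and that of the batch cannot be told apart. The labels use mouse number 236 both in the A-/wt/wt CD11b+ group and in the A+/wt/wt cortex group, which 1 mouse cannot join, and each was used as labelled.

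Near amyloid plaques, microglia are known to shift from a homeostatic state, marked by genes such as P2ry12 and Tmem119, to an activated state marked by Cst7, Itgax, Clec7a and Apoe and dependent on TREM2 signalling. The 5 genes are less familiar in these cells. Baiap2l2 encodes an adaptor with an inverse BAR (I-BAR) domain, which binds membrane and links it to actin, and is known from gut epithelium and from the stereocilia of sensory hair cells. Mamdc2 encodes a secreted proteoglycan with MAM domains. Trpm1 encodes a cation channel of the melastatin family that is known from retinal ON bipolar cells and melanocytes, and its intron holds the microRNA gene Mir211. Myo1e encodes a long-tailed class I myosin that connects membranes with actin in endocytosis and in kidney podocytes. Gm8615 is annotated as a transcribed processed pseudogene, that is, a copy of a spliced messenger RNA inserted elsewhere in the genome.

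In GRCm38 with GENCODE M21, Baiap2l2 (ENSMUSG00000018126.15) lies at chr15:79258195-79285537 on the minus strand with 13 merged exons, Mamdc2 (ENSMUSG00000033207.7) at chr19:23302609-23448442 on the minus strand with 14, Trpm1 (ENSMUSG00000030523.18) at chr7:64153835-64269775 on the plus strand with 31 and Myo1e (ENSMUSG00000032220.10) at chr9:70207350-70399766 on the plus strand with 29. Gm8615 (ENSMUSG00000024437.6) is a single exon at chr5:149155108-149156209 on the minus strand, inside the span of Hmgb1 on the same strand, with no shared exon bases. Its 771-base transcript matched that of Gnpda1, an enzyme of amino sugar metabolism, over 753 bases at 99.07% identity, so that a read placed on one of the pair may come from the other and the count of Gm8615 is uncertain. The counts of the other 4 genes have less of this limit: Trpm1 shares 12 exon bases with Gm44722 on the other strand, in counts made without strand, and Myo1e matched Myo1f at 75.1% identity over 2438 bases.

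The 250 bases before the annotated starts are shown for the members with an entry in the promoter table, RefSeq promoters of GRCm38.p6, as the start regions of genes selected on the same contrast. They are Myo1e and Trpm1, the latter with 2 starts. Baiap2l2, Mamdc2 and Gm8615 had no entry.
Trpm1, first start, chr7:64153585-64153834, plus strand: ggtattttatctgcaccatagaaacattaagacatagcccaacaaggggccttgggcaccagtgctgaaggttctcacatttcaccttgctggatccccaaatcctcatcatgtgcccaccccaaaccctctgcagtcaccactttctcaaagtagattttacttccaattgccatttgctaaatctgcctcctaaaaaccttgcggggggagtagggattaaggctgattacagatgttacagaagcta
Trpm1, second start, chr7:64185209-64185458, plus strand: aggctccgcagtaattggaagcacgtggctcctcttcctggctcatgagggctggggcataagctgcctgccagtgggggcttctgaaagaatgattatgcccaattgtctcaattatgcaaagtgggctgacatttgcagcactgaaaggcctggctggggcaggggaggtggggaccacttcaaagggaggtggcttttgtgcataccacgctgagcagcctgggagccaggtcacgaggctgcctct
Myo1e, chr9:70207100-70207349, plus strand: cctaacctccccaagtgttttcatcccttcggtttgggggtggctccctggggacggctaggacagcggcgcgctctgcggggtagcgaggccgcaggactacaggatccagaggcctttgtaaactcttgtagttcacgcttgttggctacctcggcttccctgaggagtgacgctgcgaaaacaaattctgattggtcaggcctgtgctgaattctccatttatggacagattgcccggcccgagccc
Each promoter was searched on both strands, from 250 bases before to 50 after the start, for GAGGAAGT (a PU.1 site, the myeloid lineage factor), TCANGTGA (MiT/TFE factors, which include Mitf), TGANTCA (AP-1) and the TATA box (TATAAA). None of the 4 was found, so no base is capitalised. Of 32851 promoters of the same length, 3.20% held the PU.1 site, 4.18% the MiT/TFE motif, 7.81% the AP-1 motif and 13.6% the TATA box, and no match says only that these letters are not in these windows.

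The total counts per library were 18.9 to 25.1 M in female CD11b+, 16.2 to 19.9 M in male CD11b+ and 25.2 to 43.1 M in cortex libraries. Mitochondrial genes took 3.453 to 24.5% of the counts in female CD11b+, 3.966 to 12.77% in male CD11b+ and 4.025 to 5.58% in cortex libraries. Values are CPM (counts per 1 M counts of the library), with TMM scaling within each table, so levels set across tables rest on separate scalings. All 14 homeostatic microglia genes listed were higher and all 14 neuron genes lower in CD11b+ than in cortex A+ libraries (median log2FC 4.86 and -4.26). Of all 19942 genes tested, 8094 were higher and 8738 lower. Endothelial and mural markers were also higher (8 of 9), with sums of 770 to 2205 CPM in A+ CD11b+ and 225.7 to 390.4 CPM in A+ cortex libraries. Oligodendrocyte RNA was abundant in CD11b+ libraries, with a summed level of 8 markers from 6945 to 74260 CPM in females, against 3842 to 6498 CPM in cortex. In cortex, App, the gene of the amyloid precursor protein, and Prnp, the gene of the transgenes' promoter, were 1.89- and 3.27-fold the A-/wt/wt library, with all 8 A+ libraries above it, whereas neither passed the test in CD11b+ cells. The labels do not say that libraries of a group came from separate litters or days, and p-values measure the spread between these libraries.

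In the 7 A-/wt/wt females, Baiap2l2 was 0.580 CPM at the lowest, 1.49 at the median and 1.82 at the highest. The A+/wt/wt values were 38.8 (mouse 331), 60.4 (367), 41.1 (375) and 76.3 CPM (380), and the A+/ki/ki values 54.3 (244), 30.9 (335), 75.3 (394) and 61.9 CPM (405). The groups with and without transgenes did not overlap. Of all genes tested, 1.95% were higher without overlap in A+/wt/wt and 2.5% in A+/ki/ki cells. The folds fitted by edgeR over A-/wt/wt were 40.4 (A+/wt/wt) and 41.1 (A+/ki/ki). By log2FC, Baiap2l2 ranked 10 from the top of 17355 genes tested in the A+/wt/wt comparison (log2FC 5.34, SE 0.27) and 7 of 17446 in the A+/ki/ki comparison (5.36, SE 0.29), which share their A-/wt/wt libraries.

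Mamdc2 started from a somewhat higher level, 2.45 to 4.10 CPM in the A-/wt/wt females with a median of 3.57. It was 32.1 (mouse 331), 52.0 (367), 57.4 (375) and 82.0 CPM (380) in A+/wt/wt and 59.9 (244), 53.6 (335), 65.5 (394) and 96.0 CPM (405) in A+/ki/ki libraries. All 8 A+ libraries were above all 7 A- libraries. The log2FC was 4.04 (SE 0.23, rank 26) in A+/wt/wt and 4.32 (SE 0.20, rank 14) in A+/ki/ki cells.

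Trpm1 was close to undetected without transgenes, with 0 to 8 counts per A-/wt/wt library (0 to 0.364 CPM, median 0.0857) and 2 of the 7 libraries at 0. A single library without a count allows a level of up to about 3 counts, and these limits cover counting error only. The A+/wt/wt libraries held 7.06 (mouse 331), 19.9 (367), 13.2 (375) and 20.0 CPM (380) and the A+/ki/ki libraries 11.7 (244), 7.26 (335), 16.5 (394) and 12.4 CPM (405), from 153 to 469 counts. It had the second largest log2FC of all genes tested in both comparisons, 6.80 (SE 0.59) and 6.45 (SE 0.64), and its fitted folds rest on few A- counts. With limma on the deposited log2 values, which compress low levels, the log2FC of Trpm1 was 3.66 and 3.38.

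Myo1e differed from the others in having a clear level in A- cells. It was 32.8 to 48.5 CPM (median 38.4) in A-/wt/wt females, against 107.9 (mouse 331), 197.1 (367), 146 (375) and 216.7 CPM (380) in A+/wt/wt and 156.1 (244), 107.3 (335), 159.5 (394) and 180.9 CPM (405) in A+/ki/ki libraries. The fitted fold was 4.34 and 3.88 (log2FC 2.12, SE 0.18, and 1.96, SE 0.15), with ranks of 102 and 132, again without overlap. Per kb of merged exon, which allows levels to be set between genes, the A+/wt/wt order was Myo1e (29.3 ± 8.65 CPM per kb), Baiap2l2 (19.85 ± 6.47), Mamdc2 (16.2 ± 5.94), Gm8615 (9.945 ± 4.21) and Trpm1 (1.02 ± 0.422, mean ± SD, n = 4), where neighbours from Myo1e to Gm8615 lay within about their joint spread. Trpm1 has 14746 merged exon bases over all its transcripts, which lowers its value on this scale.

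Of the 5 members, 5 were called higher in A+/wt/wt cells by the quasi-likelihood test of edgeR at FDR 0.05, where 1.01% of all genes tested were (175 of 17355). In A+/ki/ki cells, 4 were called higher, where 1.35% of genes were (236 of 17446), and Gm8615 did not pass the count minimum. Nothing is read from these counts or from the lack of overlap, since the members were chosen on these libraries. All libraries of the 8 groups are shown in the plot of the 5 genes by library.

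**Figure D1:**
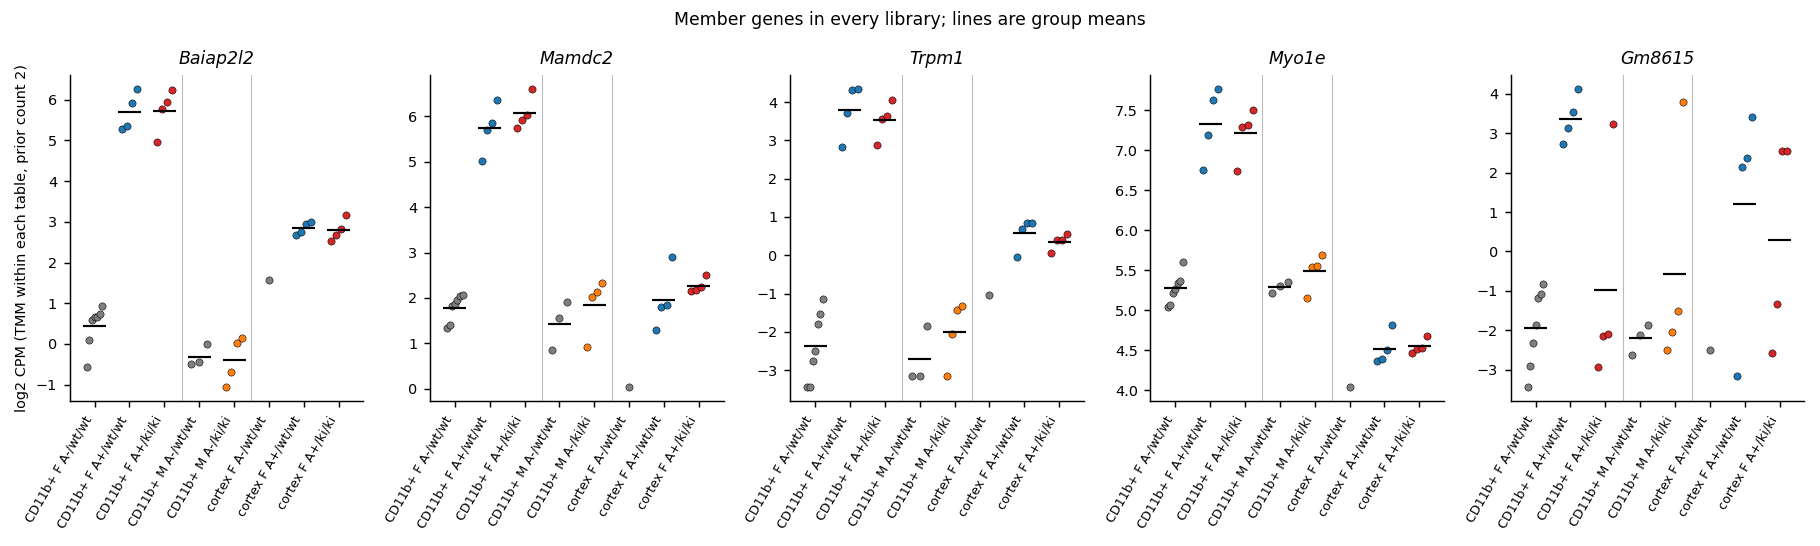
log2 CPM (prior count 2) of each gene in each of the 31 libraries, with 1 panel per gene, points coloured by genotype, lines for the group means and vertical lines between female CD11b+, male CD11b+ and cortex groups. Baiap2l2, Mamdc2, Trpm1 and Myo1e are higher in all 8 A+ than in all 7 A- female CD11b+ libraries, on which they were selected. Of all genes tested, 1.95% (A+/wt/wt) and 2.5% (A+/ki/ki) were higher without overlap. Gm8615 is both high and low within 4 groups.

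Gm8615 went against the label of a gene linked to amyloid. It had 0 to 11 counts in the A-/wt/wt females (0 to 0.471 CPM) and 118 to 405 counts in A+/wt/wt libraries, at 11.4 (mouse 331), 17.2 (367), 6.49 (375) and 8.69 CPM (380), a fitted fold of 47.75. In A+/ki/ki libraries, however, it held 3 (mouse 244), 3 (335), 183 (394) and 1 counts (405), that is 0.132, 0.142, 9.32 and 0.0375 CPM, so that 3 of 4 libraries lay in the range of mice without transgenes. Among males, none of which carry transgenes, A-/ki/ki mouse 139 held 222 counts (13.7 CPM) and the other A-/ki/ki libraries 1 (104), 2 (136) and 5 (84). In cortex, it was 0.0549 (mouse 236), 5.09 (257), 4.397 (259) and 10.6 CPM (329) in A+/wt/wt and 0.109 (184), 5.84 (203), 5.80 (216) and 0.336 CPM (222) in A+/ki/ki mice, with 0.119 CPM in the A-/wt/wt library. Low and high libraries thus stood in the same genotype group in 4 of the 8 groups.

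Hbegf, an epidermal growth factor receptor ligand named as one of the 3 genes most like Gm8615, was read beside it. It was 87.7 (mouse 331), 97.0 (367), 47.4 (375) and 44.9 CPM (380) in A+/wt/wt CD11b+ libraries, and 6.71 (244), 10.1 (335), 133.9 (394) and 4.05 CPM (405) in A+/ki/ki libraries. Male A-/ki/ki mouse 139 had 107.3 CPM and the other male libraries 7.07 to 12.5 CPM, and A-/wt/wt females had 8.31 to 13.5 CPM. Mice 394 and 139 were therefore high for both genes. Mouse 394 is among the libraries on which Hbegf was picked as like Gm8615, and mouse 139 is not. In cortex, Hbegf was 13.4 (236), 35.4 (257), 28.3 (259) and 49.8 CPM (329) in A+/wt/wt and 13.3 (184), 32.2 (203), 32.98 (216) and 12.2 CPM (222) in A+/ki/ki mice, the same mice being high or low as for Gm8615.

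Gnpda1 is the near-identical gene and was read library by library for that reason. It was 10.15 (mouse 331), 23.6 (367), 32.4 (375) and 38.3 CPM (380) in A+/wt/wt, 58.4 (244), 43.02 (335), 45 (394) and 63.8 CPM (405) in A+/ki/ki and 33.4 to 58.8 CPM in A-/wt/wt females. Male A-/ki/ki mouse 139 had the lowest male value, 16.3 CPM, where the other male libraries had 45.1 to 63.2 CPM. In cortex it was 26.05 (236), 20.0 (257), 20.15 (259) and 11.04 CPM (329) in A+/wt/wt and 29.1 (184), 18.1 (203), 18.55 (216) and 26.75 CPM (222) in A+/ki/ki mice, so that mouse 329 was highest for Gm8615 and lowest for Gnpda1. Hmgb1, whose span holds Gm8615, was 128.7 to 226.6 CPM in all 31 libraries. What sets Gm8615 in single mice was not tested.

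**Figure D2:**
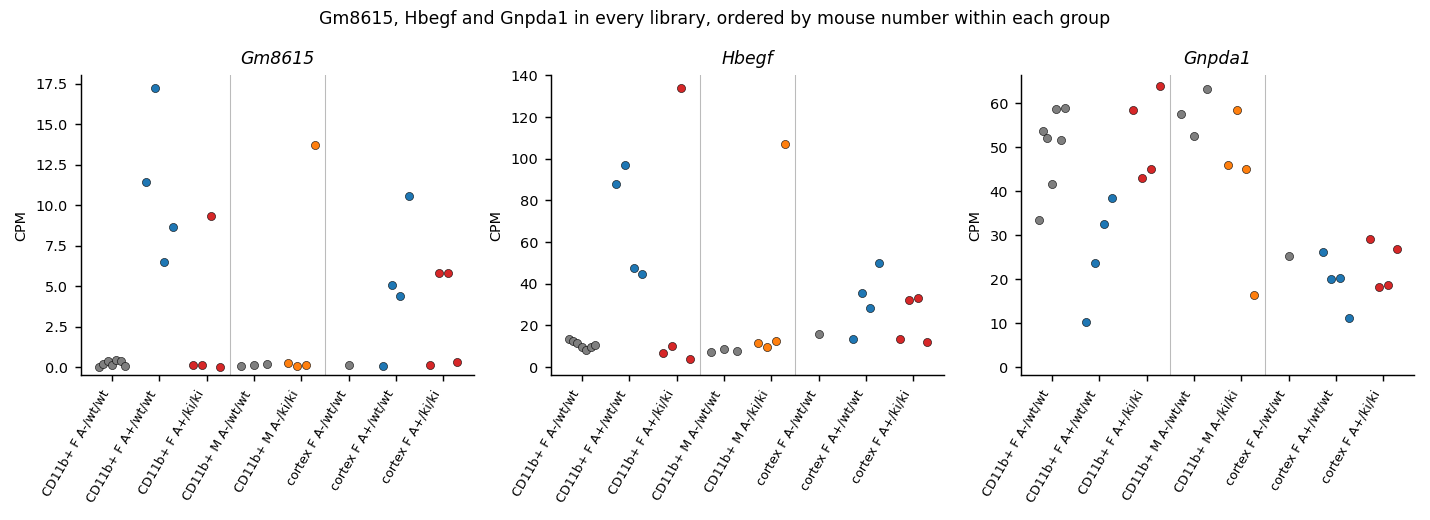
CPM of Gm8615, Hbegf and Gnpda1 in each of the 31 libraries, by group and in order of mouse number within a group, 1 point per library. Gm8615 and Hbegf are high in A+/ki/ki mouse 394 (9.32 and 133.9 CPM) and in male A-/ki/ki mouse 139 (13.7 and 107.3 CPM), alone in their groups. Mouse 394, unlike mouse 139, is among the libraries on which Hbegf was picked.

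Whether the P522R genotype shifts these genes in amyloid-bearing mice was addressed by comparing A+/ki/ki with A+/wt/wt CD11b+ cells, libraries of the same batch tag. None of the 5 genes passed the test, in a comparison where 0 of 17039 genes did at FDR 0.05 (0%), 575 had an unadjusted p below 0.05 and the Wald test of DESeq2 called 7. The log2FC was -0.02 for Baiap2l2 (95% interval -0.60 to 0.55, adjusted p = 0.984), 0.24 for Mamdc2 (-0.31 to 0.78, 0.853), -0.39 for Trpm1 (-1.07 to 0.30, 0.853) and -0.21 for Myo1e (-0.66 to 0.24, 0.853), all by edgeR with 4 against 4 libraries. The intervals, 1.96 SE to each side, leave room for changes of up to about 1 log2 unit in Trpm1 and less in the others. The ranges of the genotypes overlapped for each gene.

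For Gm8615 the log2FC was -2.26, with an interval from -4.90 to 0.37 (edgeR adjusted p = 0.853). Gm8615 met the count minimum through the A+/wt/wt libraries (118 to 405 counts), which are among those on which it was selected as high. Nothing is therefore read from its test. Without mouse 394 the log2FC was -6.74, and over the other 7 libraries left out in turn it ranged up to -1.84. Baiap2l2 had a log2FC on either side of 0 when single libraries were left out (-0.21 to 0.22). Mamdc2, Trpm1 and Myo1e kept their sign, with ranges of 0.05 to 0.51, -0.62 to -0.19 and -0.36 to -0.03.

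In cortex, 0 of the 5 genes and 0 of 18640 genes tested (0%) differed between A+/ki/ki and A+/wt/wt mice, with 514 genes at an unadjusted p below 0.05 and 11 called by DESeq2. Baiap2l2 was 7.02 ± 1.40 CPM in A+/ki/ki and 7.125 ± 0.760 in A+/wt/wt libraries (mean ± SD, n = 4 each), a log2FC of -0.02 (95% interval -0.30 to 0.27). Mamdc2 had a log2FC of 0.21 (-0.33 to 0.75), Trpm1 of -0.24 (-0.72 to 0.24), Gm8615 of -0.71 (-2.58 to 1.16) and Myo1e of 0.02 (-0.18 to 0.23), each with an edgeR adjusted p of 0.9997. The intervals of Baiap2l2 and Myo1e were narrow and lay within 0.301 log2 units of 0.

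Male mice show the 5 genes without amyloid. Baiap2l2 was 0.881 (mouse 101), 0.598 (102) and 0.629 CPM (94) in A-/wt/wt males and 0.510 (104), 0.905 (136), 0.371 (139) and 1.00 CPM (84) in A-/ki/ki males, and Mamdc2 was 2.71 ± 0.977 (n = 3) and 3.72 ± 1.35 CPM (n = 4). Trpm1 held 0 to 3 counts in wt/wt and 0 to 6 in ki/ki libraries and, like Gm8615, did not reach the minimum of 10 counts in 3 libraries. Myo1e was 39.15 ± 1.91 CPM in wt/wt and 45.2 ± 6.95 CPM in ki/ki males. In A-/wt/wt females, in another table with its own scaling, the means were 1.34 CPM for Baiap2l2, 3.42 for Mamdc2 and 38.9 for Myo1e.

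None of the 3 members tested passed in the male comparison, where 16.4% of 16373 genes did. The log2FC was 0.01 for Baiap2l2 (95% interval -0.81 to 0.84, edgeR adjusted p = 0.988), 0.45 for Mamdc2 (-0.28 to 1.19, 0.429) and 0.21 for Myo1e (-0.06 to 0.47, 0.312), with 4 ki/ki against 3 wt/wt libraries. Without mouse 104, Myo1e passed (log2FC 0.31, adjusted p = 0.0259). All 14 neuron and all 10 astrocyte markers were higher in these ki/ki males, with neuron sums of 758.7 to 1759 CPM against 242.5 to 349 CPM, and their part in the member values was not tested.

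**Figure D3:**
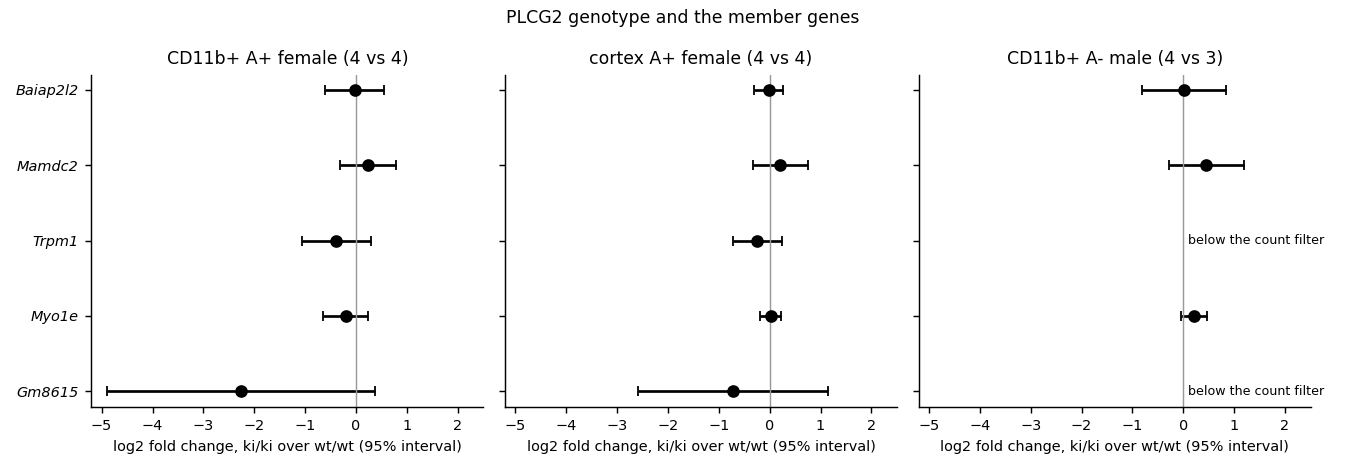
log2 fold change of ki/ki over wt/wt for each gene (points) with 95% intervals (bars) in female A+ CD11b+ cells, female A+ cortex and male A- CD11b+ cells. Every interval holds 0, and that of Gm8615 is the widest in both female panels (-4.90 to 0.37 in CD11b+ cells).

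In cortex, the 4 protein-coding members were higher in the A+ libraries, at lower levels than in A+ CD11b+ cells. Without transgenes, cortex was above the highest female CD11b+ library for Baiap2l2 (2.93 against 1.82 CPM) and Trpm1 (0.429 against 0.364 CPM). It was below the lowest for Mamdc2 (0.978 against 2.45 CPM) and Myo1e (16.5 against 32.8 CPM), all on separate scalings. A single A-/wt/wt cortex library was analysed here (1 sample), so no test is given, and the intervals below are exact Poisson intervals of its count at 95%, which cover counting error only. Baiap2l2 was 2.93 CPM in the A- library (123 counts) and 6.37 (mouse 184), 5.75 (203), 6.995 (216), 8.98 (222), 7.63 (236), 7.90 (257), 6.65 (259) and 6.315 CPM (329) in the A+ libraries. The mean was 2.41-fold the A- value (2.02 to 2.90 over the interval of that count). Every A+ library was higher than the A- library.

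Mamdc2 went from 0.978 CPM (41 counts) to 2.42 to 7.46 CPM with a median of 4.43, a fold of 4.61 (3.40 to 6.42). Trpm1 went from 0.429 CPM (18 counts) to 0.906 to 1.72 CPM, median 1.34, a fold of 3.16 (2.00 to 5.33). Myo1e went from 16.5 CPM (691 counts) to 20.6 to 28.03 CPM, median 22.8, a fold of 1.41 (1.31 to 1.52). Mouse 257 had the highest Mamdc2 and Myo1e of the 8 A+ cortex libraries, and mouse 236 the lowest Mamdc2 and Trpm1. In all 3, every A+ library was above the A- library.

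Of the 5 members, 4 were at least 2-fold higher by their mean, where 4.93% of 18810 genes were, and 4 had all 8 A+ libraries above the A- library, where 15.3% of genes did. Gm8615 was among the first 4 (33.8-fold by its mean) but not the second, since mice 184 and 236 lay below the A- library, and Myo1e the reverse. In the lists read beside them, 24 of 40 amyloid response genes were at least 2-fold higher and 35 had all A+ libraries above, with a median log2 ratio of 1.41 against 0.0127 over all genes. Of 14 homeostatic genes, 5 were at least 2-fold higher and 13 had all A+ libraries above, with a median of 0.832. More microglia in the tissue and more RNA of these genes per microglial cell cannot be told apart in bulk tissue.

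Which of these genes are carried by CD11b+ cells was asked by setting the 8 A+ CD11b+ against the 8 A+ cortex libraries, a comparison in which 40.6% of 19942 genes were called higher in CD11b+ cells. The 8 CD11b+ libraries are among those on which the genes were selected, so the values are a description. Baiap2l2 was 54.9 ± 16.8 against 7.07 ± 1.04 CPM (log2FC 3.25, SE 0.18), and Mamdc2 was 62.3 ± 19.5 against 4.51 ± 1.54 CPM (4.10, SE 0.24). Trpm1 was 13.5 ± 5.05 against 1.36 ± 0.310 CPM (3.61, SE 0.23) and Myo1e 158.9 ± 39.1 against 23.2 ± 2.48 CPM (3.07, SE 0.14, mean ± SD, n = 8 each). These 4 did not overlap between tissues, in a comparison where 22.7% of all genes tested were higher in CD11b+ cells without overlap. These log2FC lay below the median of the 40 amyloid response genes (4.14) and of the 14 homeostatic genes (4.86), all of which were called higher. Also called higher were 8 of 9 endothelial and mural (median 2.83), 8 of 8 border macrophage (4.26) and 7 of 7 tested neutrophil and lymphocyte genes (8.53). Of 8 oligodendrocyte genes, 2 were higher and 4 lower, and all neuron and astrocyte genes were lower. Which cells of the CD11b+ samples carry the members was not tested.

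Gm8615 overlapped between the tissues, at 6.68 ± 6.26 against 4.03 ± 3.69 CPM (log2FC 0.70, SE 0.95), and its log2FC was -0.17 without CD11b+ mouse 394. In the tissues, dissociation and bead selection go with the CD11b+ samples and whole brain is set against 1 cortical region, and these differences cannot be told apart from that of the cells.

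The 8 A+ CD11b+ libraries are among those on which the genes were selected, so correlations of log2 CPM across them are given as a description. Pearson's r was 0.93 for Trpm1 and Myo1e, 0.87 for Baiap2l2 and Myo1e and 0.85 for Baiap2l2 and Trpm1. Spearman's rho was 0.86, 0.90 and 0.81. With the genotype means removed, r was 0.93, 0.89 and 0.88. Mamdc2 had an r of 0.70 with Myo1e (rho 0.55), 0.62 with Baiap2l2 and 0.56 with Trpm1.

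With single libraries left out, r ranged from 0.90 to 0.97 (Trpm1 and Myo1e), 0.80 to 0.95 (Baiap2l2 and Myo1e) and 0.77 to 0.90 (Baiap2l2 and Trpm1). Mice 331 and 335 had the lowest Baiap2l2, Trpm1 and Myo1e of their genotypes, and without both the r of these 3 pairs fell to 0.73, 0.64 and 0.59. Mice 331 and 335 also had the lowest summed levels of the 14 homeostatic genes (13860 and 15840 CPM, against 19610 to 26690 CPM in the other 6) and the highest of the 8 oligodendrocyte markers (50850 and 64450 CPM, against 6945 to 44770 CPM). Their neuron sums were 1862 and 2459 CPM, against 208.7 to 1883 CPM. Mitochondrial genes took 15.55 and 19.37% of their counts, against 3.453 to 16.68% in the other 6. The part of these cells or of library quality in the correlation was not tested. Gm8615 fell into separate high and low libraries, so no correlation of it with another gene is given, although its pairs count among the 10 of the adjustment in cortex.

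In the 8 A+ cortex libraries, 0 of 10 pairs passed after Benjamini-Hochberg adjustment (exact two-sided permutation tests over 40320 pairings). Pearson's r of the 6 pairs without Gm8615 ranged from 0.04 (Trpm1 and Myo1e) to 0.62 (Mamdc2 and Myo1e, exact permutation p = 0.103, adjusted p = 0.517). The departures of each library from the mean are shown in the plot of the 4 genes across A+ libraries.

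**Figure D4:**
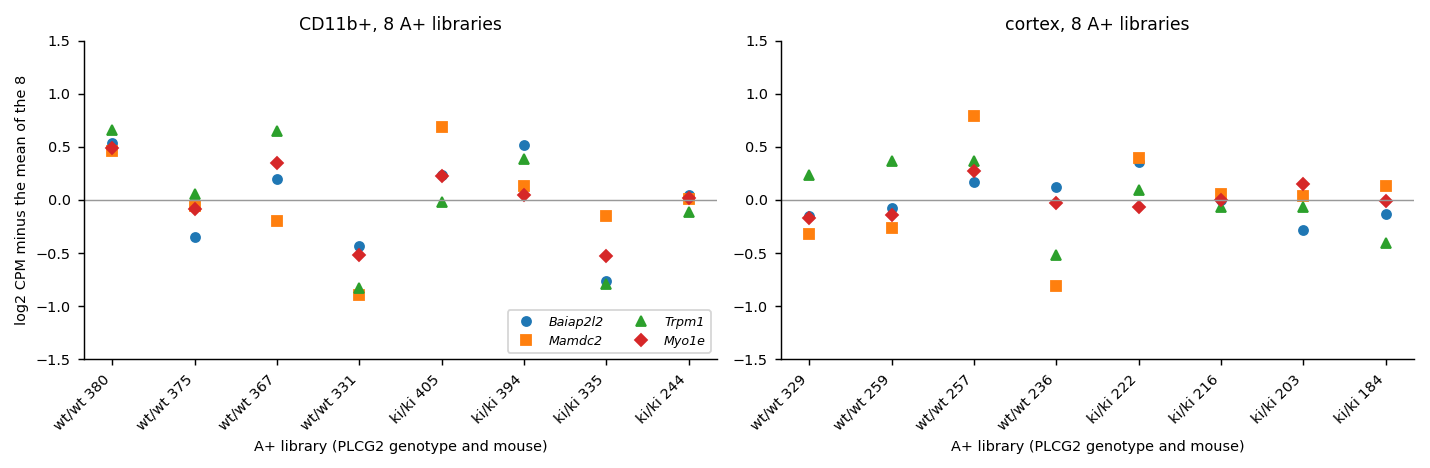
log2 CPM of Baiap2l2, Mamdc2, Trpm1 and Myo1e in each A+ library minus the mean of the 8, for CD11b+ cells and cortex, with libraries named by Plcg2 genotype and mouse. In CD11b+ cells, Baiap2l2, Trpm1 and Myo1e are lowest in mice 331 and 335, and in cortex the genes share no such order.

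The genes most like each member in pattern were ranked by Pearson's r over the 8 A+ CD11b+ libraries with genotype means removed, among 11201 genes of at least 5 CPM, and their r in the 8 A+ cortex libraries was then read. For Baiap2l2 they were H2-Ob (0.99, and -0.25 in cortex), Capn15 (0.99, -0.22) and Tctn1 (0.99, 0.28). For Mamdc2 they were Lrpap1 (1.00, -0.29), Zfp827 (0.98, -0.70) and Pla2g6 (0.98, 0.36), and for Trpm1 Igf2bp2 (1.00, -0.53), Slc39a1 (0.99, 0.04) and Tbl2 (0.98, 0.48). For Myo1e they were Txndc16 (0.99, -0.05), Ncln (0.99, 0.44) and Bcl7a (0.99, -0.16). With 8 points and this many genes, a high r at the top of the ranking is no finding by itself, and the highest of these in cortex was 0.48.

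For Gm8615 the ranking gave Bnip3, Hbegf and Plppr3, with no r printed because its libraries fell into separate high and low ones. In cortex, r was positive with Hbegf and negative with Bnip3 and Plppr3, and only Hbegf was read library by library.

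The relatives of each gene were read next, in A+ against A-/wt/wt CD11b+ females. The 2 comparisons share their A- libraries and follow the batch tags. Of the 4 other I-BAR genes, Baiap2l1 was higher in A+/wt/wt cells and Baiap2, Mtss1 and Mtss2 were not called. Baiap2l1 was 4.00 to 7.69 CPM in A-/wt/wt, 13.3 (mouse 331), 22.3 (367), 6.05 (375) and 23.4 CPM (380) in A+/wt/wt and 5.53 (244), 6.97 (335), 3.87 (394) and 4.23 CPM (405) in A+/ki/ki libraries. Its log2FC was 1.56 in A+/wt/wt (edgeR adjusted p = 0.0290) and -0.12 in A+/ki/ki cells (0.830), and the difference between the genotypes, -1.71, did not pass its own test (0.853). The call was lost without any 1 of 7 of the 11 libraries (mice 224, 225, 236, 242, 243, 367 and 380), with adjusted p of up to 0.162, and with limma on the deposited log2 values (0.0654).

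In cortex, Baiap2l1 was 13.3 (mouse 236), 1.24 (257), 26.9 (259) and 0.910 CPM (329) in A+/wt/wt and 1.202 (184), 1.21 (203), 30.8 (216) and 0.744 CPM (222) in A+/ki/ki mice, with 1.53 CPM in the A- library. It therefore had high and low libraries within both genotypes, in an order other than that of Gm8615.

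Among the class I myosins read beside Myo1e, Myo1c, Myo1d, Myo1f and Myo1g were not called in either comparison by edgeR. Their log2FC ranged from -0.45 to 0.43 in A+/wt/wt and from -0.48 to 0.49 in A+/ki/ki cells, where the median over all genes was -0.03 and -0.01. Myo1f, the other long-tailed class I myosin, was 199.8 CPM in A-/wt/wt and 267.3 and 281.2 CPM in the A+ groups (log2FC 0.43 and 0.49, adjusted p = 0.488 and 0.298). In cortex, Myo1f was 4.13 CPM in the A- library and 11.8 CPM on average in the 8 A+ libraries, all of them above it (2.87-fold). It was the 1 of 7 class I myosins listed beside Myo1e that was at least 2-fold higher there.

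Of 6 TRPM channels tested beside Trpm1 (Trpm2 to Trpm7), Trpm5 was lower in A+/wt/wt cells and the others were not called. Trpm5, a channel of taste cells, was 2.00 to 4.01 CPM in A-/wt/wt and 1.21 (mouse 331), 0.850 (367), 0.770 (375) and 1.43 CPM (380) in A+/wt/wt libraries (log2FC -1.45, edgeR adjusted p = 0.0365). In A+/ki/ki libraries it was 1.18 (244), 1.61 (335), 3.87 (394) and 2.14 CPM (405), with a log2FC of -0.43 (0.561). The call was lost without any 1 of 8 of the 11 libraries (mice 224, 225, 243, 245, 331, 367, 375 and 380; adjusted p of up to 0.156). Trpm2, Trpm4 and Trpm7, at 92.5, 25.0 and 58.2 CPM in A+/wt/wt cells, had log2FC of -0.08, -0.24 and 0.21. In cortex, Trpm5 went the other way, at 0.119 CPM (5 counts) in the A- library and 0.511 CPM on average in the 8 A+ libraries. All 8 were above the A- library, as for no other of the 6 TRPM genes.

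Of 12 MAM domain genes tested beside Mamdc2, 0 were called by edgeR in either comparison. Nrp2, a co-receptor for semaphorins and VEGF, came nearest, with 38.3 CPM in A-/wt/wt and 75.2 and 73.5 CPM in the A+ groups (log2FC 0.99 and 0.94, adjusted p = 0.0520 and 0.0785). Nrp1 had a log2FC of 0.58 and 0.51. The median log2FC of these 12, with Mamdc4, Mdga1, Mdga2, Ptprk, Ptprm, Ptprt, Ptpru, Npnt, Egfl6 and Zan, was -0.08 and -0.35. Of the 4 MiT/TFE factors, of which Mitf drives Trpm1 in melanocytes, 0 were called. Mitf was 26.7 CPM in A-/wt/wt and 35.9 and 37.8 CPM in the A+ groups (log2FC 0.44 and 0.50, adjusted p = 0.479 and 0.225), and Tfeb, Tfe3 and Tfec had log2FC from -1.51 to 0.08.

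**Figure D5:**
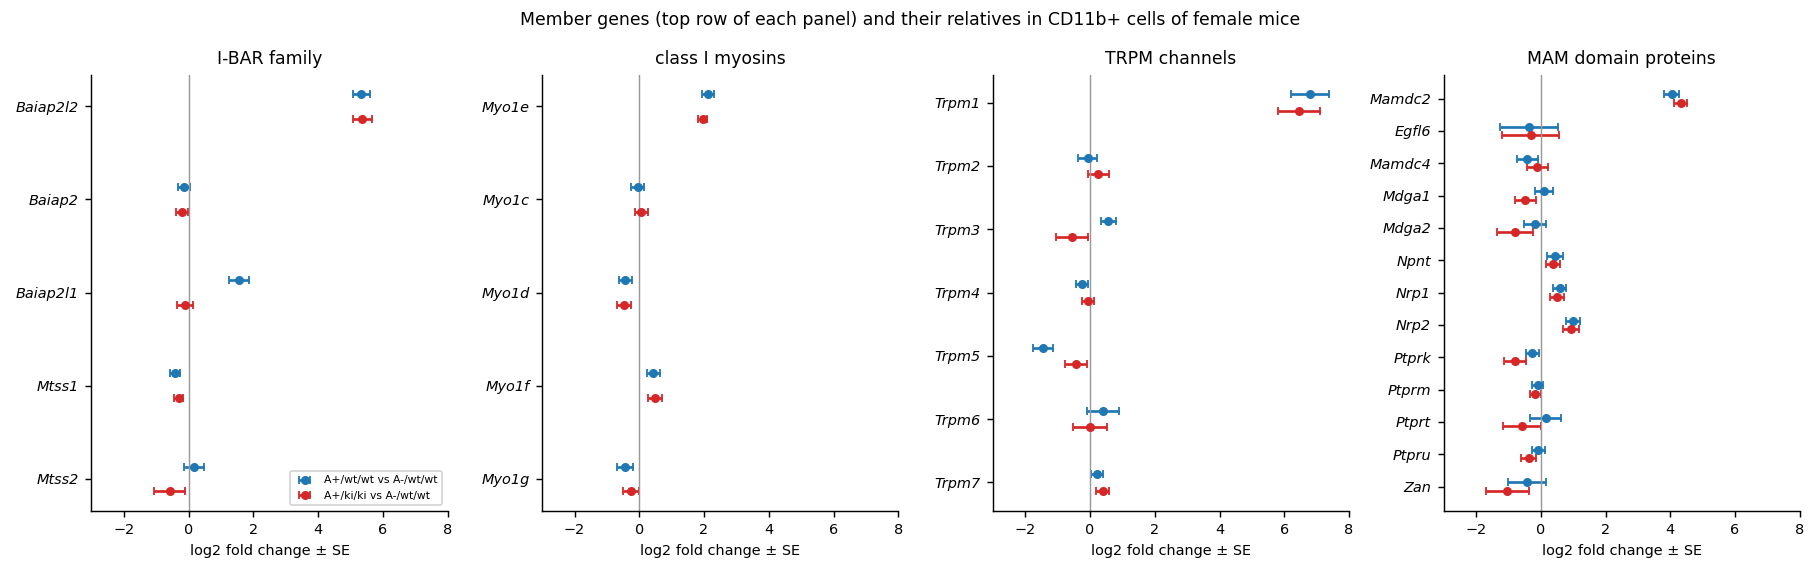
log2 fold change ± SE in CD11b+ cells of A+/wt/wt (blue) and A+/ki/ki (red) against A-/wt/wt females, for each protein-coding member (top row of each panel) and relatives that were tested. Among the relatives, Baiap2l1 (1.56) and Trpm5 (-1.45) were called, both in A+/wt/wt cells.

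In CD11b+ against cortex A+ libraries, relatives went in both directions. Baiap2, the neuronal I-BAR gene, was 22.1 against 334.3 CPM (log2FC -3.61, edgeR adjusted p = 4.53e-15), whereas Baiap2l1 was not called. Myo1f (log2FC 4.84), Myo1g (5.22) and Myo1c (2.91) were higher in CD11b+ cells like Myo1e, and 5 of 6 TRPM genes were higher, Trpm2 by 1.91. Of 12 MAM domain genes, 5 were higher, among them Nrp1 (3.18) and Npnt (2.60), and 6 lower, among them Ptprt (-4.02). All 4 MiT/TFE factors were higher, Mitf by 2.41 and Tfeb by 2.33.

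The activated state itself was read from 40 amyloid response genes, of which 23 were called higher in A+/wt/wt and 28 in A+/ki/ki cells, with a median log2FC of 1.08 and 1.28. Of all genes tested, 1.01% and 1.35% were. The list was chosen with earlier results of these data known, so its calls are a description, and both comparisons follow the batch tags. The first count ranged from 15 (without mouse 380) to 27 when single libraries were left out, and the second from 15 (without 405; 18 without 394) to 35. Cst7, a lysosomal cystatin, was 21.2 ± 8.02 CPM in A-/wt/wt (n = 7), 681.6 ± 132.5 in A+/wt/wt and 725.4 ± 189.3 CPM in A+/ki/ki cells (n = 4 each), a log2FC of 5.02 and 5.10 (edgeR adjusted p = 2.84e-06 and 9.65e-06). Itgax, the integrin CD11c, had a log2FC of 3.46 and 3.04 and Clec7a, the beta-glucan receptor dectin-1, of 2.58 and 2.66. Apoe, the lipid carrier, had 1.14 and 1.25 (adjusted p = 0.0111 and 0.0136, and 0.0656 and 0.0695 at most when a library was left out), and Trem2 0.66 and 0.87, neither called (0.202 and 0.0709). Fth1 and Ctsd, among the most abundant of the list, were not called.

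Of 14 homeostatic genes, 0 were called in either comparison, with medians of -0.06 and 0.23. Csf1r and Cx3cr1 were 5201 and 2674 CPM in A-/wt/wt and 4568 and 2472 CPM in A+/wt/wt cells. The neuron, astrocyte, oligodendrocyte, and endothelial and mural lists had 0 calls in either comparison, their summed levels overlapping between groups (oligodendrocyte 20950 to 74260 CPM in A-/wt/wt, 21940 to 50850 in A+/wt/wt and 6945 to 64450 CPM in A+/ki/ki). Of 8 border macrophage markers, Cd163, Pf4 and Cd209f were lower in A+/wt/wt (log2FC -0.88, -1.11 and -1.37, adjusted p = 0.0485, 0.0270 and 0.0122) and Cbr2 in A+/ki/ki cells (-1.12, 0.0340), and summed to 272.1 to 623.5 CPM in A-/wt/wt, 194.3 to 228.5 in A+/wt/wt and 200.5 to 316.3 CPM in A+/ki/ki libraries. Of 11 neutrophil and lymphocyte markers, 0 were called, with sums of up to 1464 CPM in A+/ki/ki libraries.

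Markers of the cell types for which Trpm1 and Baiap2l2 are best known were read as whole lists and by their defining genes. Of the pigment cell markers, Tyr, Tyrp1, Mlana and Slc45a2 had at most 5 counts in any female CD11b+ library, and Tyr and Tyrp1 were at 0 in all A+/wt/wt libraries, while Sox10, also a gene of oligodendrocytes, was 12.02, 9.31 and 6.26 CPM in A-/wt/wt, A+/wt/wt and A+/ki/ki cells. The whole list of 8 summed to 4.84 to 34.1, 7.19 to 14.9 and 3.41 to 17.3 CPM. Of the ON bipolar markers, Grm6, Lrit3 and Cabp5 had at most 2 counts in any of these libraries, and the list of 7 summed to 3.28 to 7.22, 7.33 to 10.02 and 6.45 to 8.58 CPM, most of it from Rgs11 and Gpr179. The sums of A-/wt/wt and A+/wt/wt libraries did not overlap. Of the hair cell markers, Atoh1 was at 0 in all 15 libraries and Pou4f3 in all but 1, and the list of 8 summed to 125.5 to 204.6, 115.6 to 160.1 and 119.1 to 211.4 CPM, against 119.3 to 147.6 CPM in cortex A+ libraries. The part of such cells in the member values was not tested. None of the tested genes of these 3 lists was called by edgeR in either comparison.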

How the data were processed

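RNA was sequenced after oligo(dT) selection as paired-end reads from CD11b+ cells and from temporo-occipital cortex. The authors trimmed reads (Trimmomatic 0.39, after FastQC 0.11.7), aligned them with STAR 2.7.9a to GRCm38 with GENCODE M25 and counted uniquely mapped reads per gene without strand (featureCounts 2.12.0 in R 4.2.2 per the submitters' processing notes, while the paper's methods name several versions of both). The authors deposited raw counts per gene for female CD11b+, male CD11b+ and cortex libraries in separate tables. They also deposited variance-stabilized values, which lie on a log2-like scale and served here only in an alternative test with limma 3.58.1.

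Groups came from the sample labels. The members and the gene lists were chosen with earlier results of these data known. Within each table, genes reaching 10 counts in 3 or more of the libraries compared entered a quasi-likelihood fit (edgeR 4.0.16, R 4.3.3) of the 2 groups alone, with TMM scaling and Benjamini-Hochberg adjustment over all genes tested (FDR 0.05), and CD11b+ against cortex on both female tables together. CPM values are TMM-scaled, log2 CPM carries a prior count of 2, and intervals at 95% are 1.96 SE. Without replicate A- cortex, a 2-fold difference of means was used. Other genes were named by rule: those overlapping or resembling a member, the relatives reaching 1 CPM in a group, the 3 most abundant of each other list with Cst7, Itgax, Clec7a, Apoe and Trem2, the 3 most like each member, and App, Prnp and Plcg2. Some genes that the rule names are not reported here. Transcript likeness was computed with blastn 2.17.0 and promoters came from RefSeq. The alternatives were DESeq2 1.42.0 (size factors and Wald test), no filter, the filterByExpr filter, limma, a fit of all groups and leaving out each library. The fits were tested on simulated data.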

Additional observations from a re-analysis of the deposited data

Results flagged for a closer look

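Gm8615 in CD11b+ A+/ki/ki females was 9.316 CPM in mouse 394, with a gap to the nearest of the other 3 libraries of 0.989 of the group's range, above Dixon's 95% critical value of 0.829 for 4 samples. Gm8615 in CD11b+ A-/ki/ki males was 13.73 CPM in mouse 139, with a gap of 0.987 of the range. These were 2 of 30 combinations of member and group that could be checked, where chance gives about 1 in 20. The part of read placement between Gm8615 and Gnpda1 in these values was not tested.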

How the results depend on the processing

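No paired analysis was possible because the groups compared do not share mouse numbers. Of 917 recomputed values, 810 were labelled the same as in the main setting. For tested log2FC and correlations this meant the same direction and side of the threshold. Counts of calls had to stay within a set factor, and member log2 values of A+ over A- within the SD of log2 CPM between libraries. Between A+/ki/ki and A+/wt/wt, DESeq2 called 7 genes in CD11b+ cells and 11 in cortex, where leaving out the filter gave 40, and leaving out single libraries gave 0 to 1 and 0 to 2 calls. The counts of genes called were 224 for A+/wt/wt (636 with DESeq2, 91 to 497 without single libraries) and 286 for A+/ki/ki against A-/wt/wt (956 with DESeq2, 510 in the fit of all groups, 57 to 1097), with the extremes without mice 380 and 223, and 405 and 335. In males, 2685 genes were called, and 894 (without mouse 102) to 5439 (without 104).

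With limma, the A+/ki/ki against A-/wt/wt log2FC was 4.2367 for Baiap2l2, 3.7387 for Mamdc2 and 3.3768 for Trpm1, and that of A+/wt/wt 4.2568, 3.4534 and 3.6599, on values that compress low levels. The Baiap2l2 log2FC between Plcg2 genotypes lay near 0 and changed sign: 0.0379 in the fit of all groups and -0.206 to 0.2161 without single libraries in CD11b+ A+ cells, -0.1586 to 0.0749 in cortex, and -0.0187 with limma and -0.2079 to 0.2386 in males. Myo1e ranged from -0.0271 to 0.1293 in cortex and from 0.16 to 0.308 in males. Gm8615 in CD11b+ against cortex ranged from -0.1736 to 1.0009. In the A+ CD11b+ libraries, 3 pairs of members were below 0.05 in the adjusted exact permutation test. This count became 0 without mouse 244, 331, 335 or 380, 1 without 405, and at most 4. The members were selected on these libraries, so nothing is read from the count or its changes. In cortex, r ranged from -0.0667 to 0.3237 (Baiap2l2 and Trpm1), -0.2937 to 0.3921 (Baiap2l2 and Myo1e) and -0.506 to 0.2589 (Trpm1 and Myo1e). The cause of these changes was not tested. Trpm1 and Gm8615 in A- libraries, and Trpm1 in cortex, rest on few counts, which limits their folds.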
